A study of Mus musculus with 7 samples.

Results

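The genes described here carry, in their name, a word for the machinery that copies DNA or divides the cell: kinesin, centromere, kinetochore, cyclin, cell division cycle, minichromosome, mitotic or mitosis, budding uninhibited, DNA replication, DNA polymerase, chromosome condensation or helicase. They were found by searching the names in the authors' list of 1632 probe sets that differed between sorted mouse mammary gland populations, out of 45101 probe sets on the array, and 8 genes were left out by name, of which 1, Cdkn2c, had matched a word. The search found 60 probe sets, which stand for 52 genes. A gene with several probe sets is given by its brightest one on average. All 60 probe sets passed the filter on low signal, and the lowest signal of any of them on any sorted-cell array was 28.1.

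The study sorted mouse mammary gland cells by the fluorescence of the DNA dye Hoechst. Side population (SP) cells, which lose the dye through membrane pumps, filled 3 arrays, the remaining non-side population (NSP) cells filled 3 arrays, and universal mouse reference RNA, a commercial pool from mouse cell lines, filled 1. The design text describes 4 replicates of each population with 2 chips removed, 2 rounds of RNA amplification before hybridization, and 2 chips of reference RNA, and 1 of these is used here. The labels give no strain, age or treatment, and none states that different animals were sorted, so a p-value here rests on sample-to-sample spread that may be technical.

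A dividing cell first licenses and fires replication origins, then condenses its chromosomes, attaches each to the spindle through its kinetochores, and separates them when the anaphase-promoting complex destroys the mitotic cyclins. Cyclins bind and activate cyclin-dependent kinases, among which Cdk1 drives entry into mitosis. Motor proteins of the kinesin family build the spindle and complete cytokinesis, while the checkpoint proteins hold anaphase back until the kinetochores are attached. In the mammary gland such genes follow the proliferation that comes with puberty, the oestrous cycle and pregnancy.

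The 7 arrays had median signals between 79.3 and 97.2, and arrays correlated across probe sets at 0.944 to 0.948 within SP, at 0.940 to 0.950 within NSP, and at 0.880 to 0.891 with the reference array. Markers of other cell types were read only where the authors' list, chosen for a difference between these same arrays, named them. Markers outside the list have no value here, so the counts describe the list and are not a test of cell content. Of all probe sets tested 49.2% were higher in SP cells, and 45.3% of the list. Every SP array lay above every NSP array for 6.74% of all probe sets tested, and below for 7.57%. In the list these shares were 22.4% and 27.3%. All 12 named of 18 endothelial markers had higher signals in SP cells (summed signal 11899 to 13125 in SP arrays, against 4055 to 4202 in NSP arrays). All 5 named of 11 luminal markers were lower in SP cells (9538 to 17175 in SP arrays, against 29874 to 35394 in NSP arrays), as were all 5 named of 8 basal markers (1222 to 1375 in SP arrays, against 3268 to 4372 in NSP arrays). Of 13 leukocyte and macrophage markers 5 were named, with sums of 502 to 760 in SP arrays and 3446 to 11174 in NSP arrays. Of these, 4 were lower in SP cells without overlap, while Lcp1 overlapped, with an SP minus NSP difference of 0.014 in log2. The 3 named of 6 fibroblast markers summed to 16005 to 18323 in SP arrays and 8174 to 10871 in NSP arrays, and the 2 named of 5 pericyte markers to 628 to 1010 in SP arrays and 353 to 592 in NSP arrays. Dcn held most of the fibroblast sum, and the groups overlapped for the fibroblast marker Pdgfra and the pericyte marker Rgs5. Both luminal and basal keratin genes gave signal in the labelled mammary tissue. Control probe sets for Actb gave a 3' over 5' ratio, in log2, of 3.27 to 4.16 in SP arrays, 2.38 to 3.92 in NSP arrays and 3.48 in the reference array. For Gapdh this ratio was 3.04 to 4.35 in SP arrays, 2.14 to 3.35 in NSP arrays and 2.18 in the reference array. The part of these differences in the results that follow was not tested, and in sorted bulk RNA fewer cells of a type and less RNA per cell cannot be told apart.

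Most of the machinery had a modestly higher signal in SP cells. Of the 52 genes, 41 were higher and 11 lower in SP than in NSP cells, with a median SP minus NSP difference of 0.35 on the log2 scale, which is 1.27-fold, and a range of -0.93 to 1.21. Over all 38115 probe sets tested 49.2% were higher in SP cells with a median of -0.0080, and over the authors' 1632 probe sets 45.3% were higher with a median of -0.12. The median of the 52 genes was 0.36, 0.37 and 0.37 within sample pairs 1, 2 and 3. Since the authors had listed every one of these genes for a difference between the same arrays, these values describe the list and test nothing.

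No gene passed the threshold in the paired limma test. Adjusted p-values ran from 0.381 to 0.906, and 0 of the 52 genes had one under 0.05, against a background of 0% of all probe sets tested. At an unadjusted p under 0.05 there were 21 of 52 genes, 17 of them higher in SP cells, against a background of 9.86% in either direction and 4.77% higher over all probe sets tested. Within the authors' list, from which the genes came, the shares were 34.7% and 17.6%. With a variance that follows signal intensity (limma's intensity trend), 13 of the 52 genes passed, all of them higher in SP cells, against a background over all probe sets tested of 2.47% in either direction, 1.16% higher and 1.31% lower in SP cells. Within the authors' list 27.9% passed, 14.5% higher and 13.4% lower, so the share of the 52 genes that passed in either direction was no larger than that of the list. The adjusted p-values quoted below for single genes are from that second setting and are named as trend values. The standard errors given with the differences are from the first setting, without the trend, and are not those behind the trend values. The error was 0.16 without and 0.38 with the trend for Cdc40, and 0.16 and 0.084 for Mad2l1.

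The name search also took in proteins whose known work lies elsewhere, and these were described apart. By known role, assigned with the values already seen, 38 genes act in mitosis or in copying the nuclear genome, and 14 do not. Of the 38, 36 had a higher signal in SP cells, with a median of 0.44 (1.36-fold), and 30 were higher in 3 of 3 pairs and 1 lower in 3 of 3. Every pair was higher for 16.3% of all probe sets tested and lower for 16.8%, against 37.1% and 43.3% of the authors' list. The 2 exceptions were Cdc14a and Pold3. The division is not a test, and some genes could stand on either side: Mcm8 was counted among the 38 by its family although it is known for repair, while the repair polymerase Polb and the kinase Nek1 were counted among the 14. Hells, higher in SP cells by 0.22, was also counted among the 14, although the list of replication genes used further below holds it. Counts with Hells moved were not made. With Mcm8 moved to the other roles, 35 of 37 genes were higher (median 0.44), and with Polb and Nek1 moved to mitosis and replication, 36 of 40 (median 0.43). Of the 14 with other roles, 5 were higher and 9 lower in SP cells, with a median of -0.22. All 3 SP arrays lay above all 3 NSP arrays for 19 of the 38 genes and below them for 1, while 18 overlapped. Among the 14, SP lay above NSP for 1 gene, below it for 4, and 9 overlapped. Among all probe sets tested 6.74% had every SP array above every NSP array and 7.57% had every SP array below, against 22.4% above and 27.3% below in the authors' list.

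**Figure D1:**
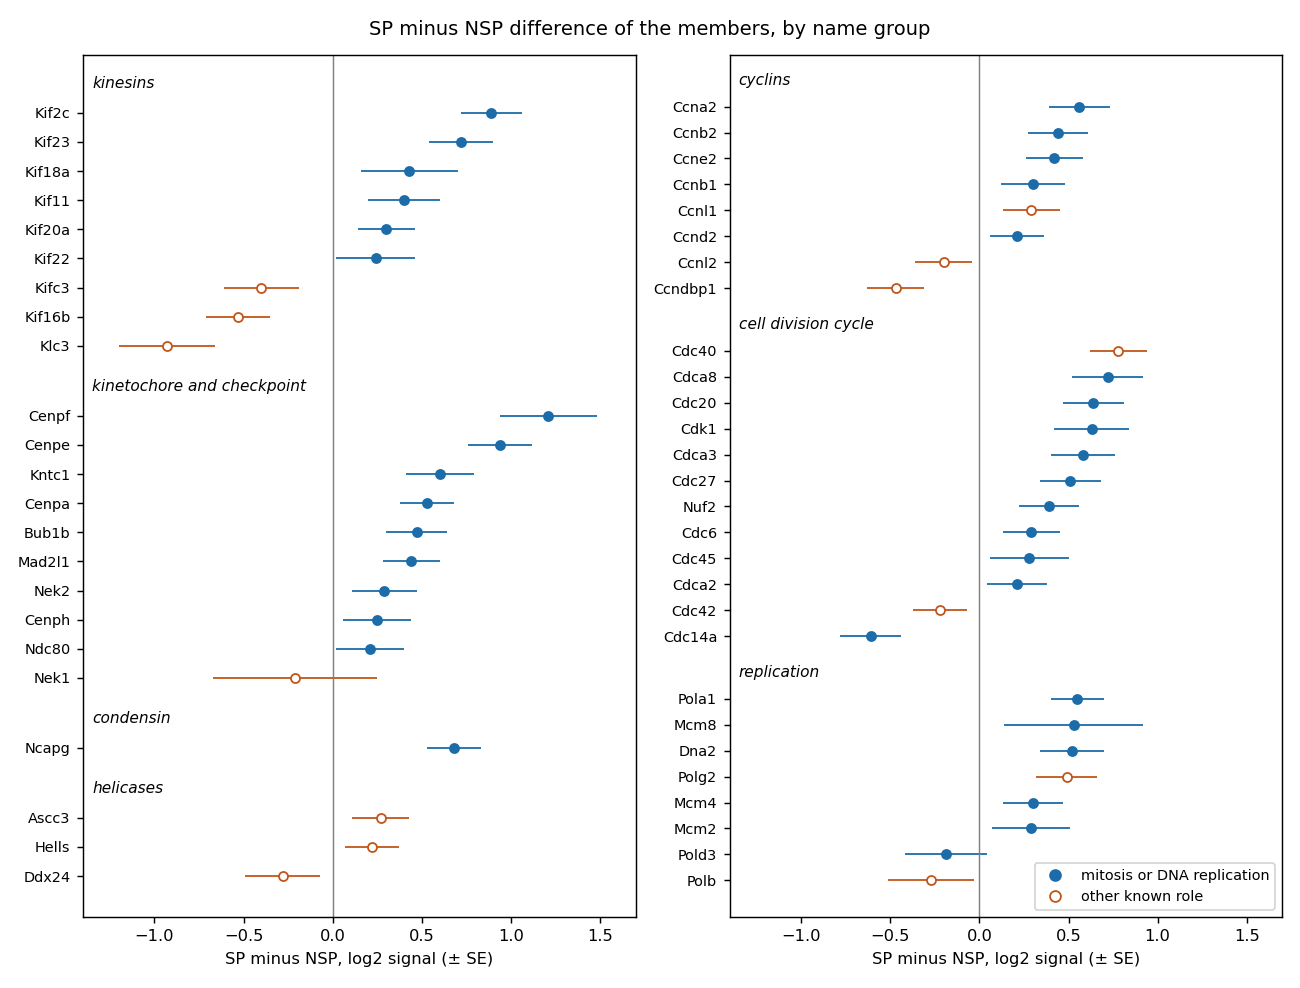
SP minus NSP difference of log2 signal for the genes, with the moderated standard error of the paired fit as a bar (3 pairs), grouped by the word in the name. Filled points are genes of mitosis or DNA replication, which lie right of 0 except for Cdc14a and Pold3, and open points the 14 genes with another known role, of which 9 lie left of 0.

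The largest difference was that of a kinetochore gene. Cenpf, a large kinetochore protein that accumulates late in the cell cycle, had signals of 631, 851 and 924 in SP cells, against 408, 318 and 306 in NSP cells. Each SP value lay above each NSP value. The difference was 1.21 ± 0.27 (moderated SE without the trend, 3 pairs, as throughout), which is 2.32-fold (trend adjusted p = 0.00839). Cenpe, the kinesin-like motor that carries chromosomes along the spindle, had 874, 869 and 927 in SP cells, against 513, 484 and 404 in NSP cells. The groups did not overlap, and the difference was 0.94 ± 0.18 (trend adjusted p = 0.00681). Kntc1, a subunit of the complex that brings checkpoint proteins to kinetochores, had 1016, 1504 and 1177 in SP cells, against 829, 911 and 687 in NSP cells, without overlap (0.60 ± 0.19, trend adjusted p = 0.0371). Cenpa, the histone H3 variant that marks centromeres, had 1322, 1363 and 1071 in SP cells, against 925, 961 and 718 in NSP cells, again without overlap (0.53 ± 0.15, trend adjusted p = 0.0298).

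The checkpoint genes and the remaining kinetochore genes differed less. Mad2l1, the checkpoint protein that binds Cdc20, had 5224, 4913 and 4306 in SP cells, against 4244, 3698 and 2833 in NSP cells. Its groups were separated by a small gap, and the difference was 0.44 ± 0.16 (trend adjusted p = 0.0215). Bub1b, the checkpoint kinase homologue BubR1, had 675, 850 and 792 in SP cells, against 473, 701 and 520 in NSP cells, and the groups overlapped (0.47 ± 0.17, and 0.46 from its other probe set). Nek2, a centrosome kinase, differed by 0.29 ± 0.18, the inner kinetochore gene Cenph by 0.25 ± 0.19, and Ndc80, which holds the microtubule end, by 0.21 ± 0.19, all with overlapping groups. Without pair 2 Nek2 gave 0.17 and Cenph 0.14, and without pair 1 Ndc80 gave 0.056 and Cenph 0.39. The 9 genes of mitosis in this name group were all higher in SP cells, with a median of 0.47. The tenth, Nek1, a kinase known for roles in cilia and DNA damage, was the dimmest of the 52 and had 56.2, 85.6 and 28.1 in SP cells, against 54.8, 53.7 and 71.0 in NSP cells. Its difference of -0.21 ± 0.46 was smaller than its error, and without sample pair 3 it was 0.35.

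The kinesins ran in both directions. Kif2c, which takes microtubules apart at centromeres, had 1536, 1561 and 1276 in SP cells, against 880, 936 and 586 in NSP cells. Its groups were well apart (0.89 ± 0.17, trend adjusted p = 0.00296), and its other probe set gave 0.62. Kif23, a motor of the central spindle needed for cytokinesis, had 692, 759 and 653 in SP cells, against 367, 436 and 476 in NSP cells, without overlap (0.72 ± 0.18, trend adjusted p = 0.0361). Kif11, the motor that pushes the spindle poles apart, had 243, 265 and 259 in SP cells, against 227, 197 and 161 in NSP cells. The SP values were tightly grouped just above the NSP values, and the probe sets disagreed in size, at 0.40 ± 0.20 for the brighter and 0.82 for the other. Without pair 3 the brighter gave 0.26.

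The other mitotic kinesins were Kif18a, which aligns chromosomes (0.43 ± 0.27), Kif20a, a cytokinesis motor (0.30 ± 0.16), and Kif22, which moves chromosome arms (0.24 ± 0.22). Kif18a gave 0.18 without pair 3 and 0.70 without pair 1. Kif22 had 4358, 2535 and 2406 in SP cells, against 2949, 2843 and 1920 in NSP cells, so that SP sample 1 stood above all others and the rest were mixed. Without pair 1 its difference was 0.080 and without pair 2 it was 0.44, while its other probe set gave 0.45. All 6 mitotic kinesins were higher in SP cells, with a median of 0.41. The 3 kinesin proteins of other known roles were all lower, each without overlap. Klc3, a cargo-binding light chain known from the sperm tail, had 162, 98.3 and 100 in SP cells, against 218, 276 and 182 in NSP cells (-0.93 ± 0.27). Kif16b, a carrier of early endosomes, had 160, 168 and 191 in SP cells, against 264, 253 and 231 in NSP cells (-0.53 ± 0.18), and Kifc3, a minus-end motor found at epithelial junctions, differed by -0.40 ± 0.21, which was -0.19 without pair 1. None of the 3 passed with the intensity trend (adjusted p = 0.221 to 0.603).

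**Figure D2:**
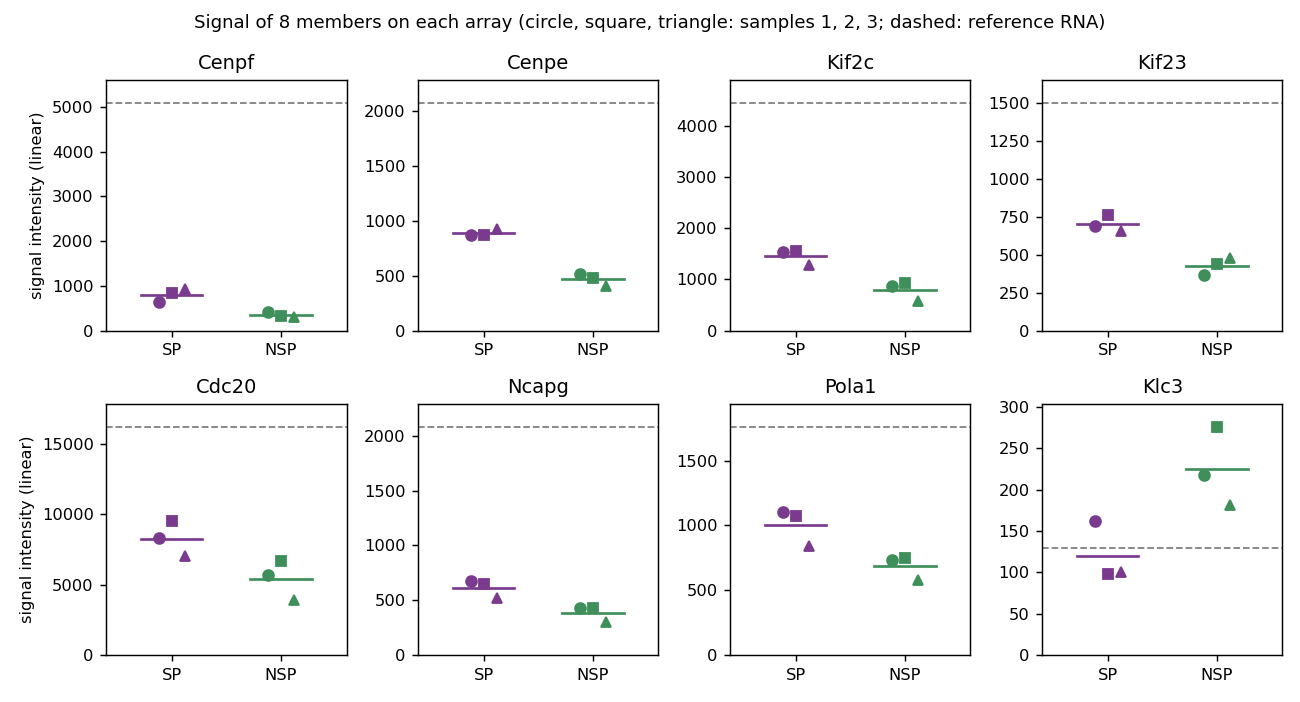
Signal intensity (linear) of 8 genes on each SP array (left) and NSP array (right). Circles, squares and triangles mark samples 1, 2 and 3, short lines the mean of 3 arrays, and the dashed line the reference array. The 7 genes of mitosis and replication have all SP values above all NSP values and below the reference, and Klc3 has all SP values below all NSP values. The 8 genes are a selection without overlap, whereas 18 of the 38 genes of mitosis and replication overlapped between SP and NSP.

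The cyclins of mitosis and of DNA synthesis were higher in SP cells by different amounts. Ccnb1, cyclin B1, the partner of Cdk1 in mitosis, had 742, 862 and 894 in SP cells, against 634, 790 and 609 in NSP cells. The groups overlapped, the difference of 0.30 ± 0.18 was 0.18 without pair 3, and its other probe set gave 0.45.

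Cyclin A2 (Ccna2), which serves both DNA synthesis and mitotic entry, had 1595, 1744 and 1421 in SP cells, against 1098, 1367 and 828 in NSP cells, without overlap (0.56 ± 0.17 from each of its probe sets, trend adjusted p = 0.0291). Ccnb2, the other mitotic B cyclin, had 1182, 1141 and 1284 in SP cells, against 755, 924 and 990 in NSP cells, also without overlap (0.44 ± 0.17). The G1 and S phase cyclins followed with overlapping groups: Ccne2, which acts at the start of DNA synthesis, differed by 0.42 ± 0.16, and Ccnd2, a D cyclin of the growth-factor response, by 0.21 ± 0.15. Ccndbp1, a helix-loop-helix protein that binds D cyclins, had 367, 477 and 616 in SP cells, against 553, 625 and 836 in NSP cells. It was lower in SP cells in each pair although the groups overlapped (-0.47 ± 0.16). The splicing-linked L cyclins ran apart, Ccnl1 at 0.29 ± 0.16 and Ccnl2 at -0.20 ± 0.16 (-0.12 without pair 2).

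The genes named for the cell division cycle spanned mitotic exit, the spindle and origin firing. Cdc20, which turns on the anaphase-promoting complex, was the brightest, with 8285, 9486 and 7038 in SP cells, against 5654, 6654 and 3880 in NSP cells. Its SP values all lay above its NSP values (0.64 ± 0.17, trend adjusted p = 0.00286, and 0.70 from its other probe set). Cdca8 (borealin), of the chromosomal passenger complex, had 5502, 5420 and 4632 in SP cells, against 4308, 3042 and 2344 in NSP cells, without overlap (0.72 ± 0.20, trend adjusted p = 0.00684). Cdk1, the mitotic kinase itself, had 1222, 930 and 1008 in SP cells, against 730, 497 and 857 in NSP cells. Its groups were apart, but its trend adjusted p of 0.0538 lay above the threshold (0.63 ± 0.21).

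Cdca3, a protein of mitotic entry, differed by 0.58 ± 0.18 and Cdc27, a subunit of the anaphase-promoting complex, by 0.51 ± 0.17, both without overlap. Nuf2, the partner of Ndc80, differed by 0.39 ± 0.17, the origin licensing factor Cdc6 by 0.29 ± 0.16, the replicative helicase component Cdc45 by 0.28 ± 0.22, and Cdca2, which brings a phosphatase to chromatin, by 0.21 ± 0.17, all with overlap. Without pair 2 Cdc6 gave 0.19 and Cdc45 0.13, without pair 1 Cdc45 gave 0.50 and Cdca2 0.13, and without pair 3 Cdca2 gave 0.33. Cdc14a stood against them. Its budding yeast counterpart is the phosphatase of mitotic exit, and its signals were 377, 358 and 451 in SP cells, against 521, 638 and 657 in NSP cells. All its SP values lay below its NSP values (-0.61 ± 0.17, trend adjusted p = 0.0822). Of the namesakes with other roles, the splicing factor Cdc40 had 163, 131 and 131 in SP cells, against 102, 70.3 and 77.4 in NSP cells, without overlap (0.78 ± 0.16, trend adjusted p = 0.426). Cdc42, the small GTPase of cell polarity, differed by -0.22 ± 0.15, also without overlap.

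The brighter probe set of the condensin gene Ncapg and the polymerase gene Pola1 were higher by similar amounts in every pair. The other replication genes were less even. Ncapg, a condensin subunit that compacts mitotic chromosomes, had 674, 646 and 516 in SP cells, against 426, 425 and 302 in NSP cells. The groups were apart (0.68 ± 0.15, trend adjusted p = 0.0461). Its other probe set gave 0.29 with overlapping groups, and -0.078 in pair 2. Pola1, the catalytic subunit of the polymerase that starts new DNA strands, had 1101, 1070 and 839 in SP cells, against 732, 749 and 575 in NSP cells, without overlap (0.55 ± 0.15, trend adjusted p = 0.0385). Dna2, a nuclease and helicase that processes lagging-strand ends, had 532, 836 and 492 in SP cells, against 357, 498 and 416 in NSP cells, with SP sample 3 just inside the NSP range (0.52 ± 0.18).

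The Mcm genes and Pold3 differed less evenly across samples. Mcm8, a helicase of recombination repair, had 252, 271 and 251 in SP cells, against 88.9, 270 and 237 in NSP cells. NSP sample 1 alone stood apart, and the difference of 0.53 ± 0.39 was 0.042 without pair 1. Mcm2, a subunit of the replicative helicase, had 2497, 2521 and 2148 in SP cells, against 1606, 2727 and 1698 in NSP cells, where NSP sample 2 was the highest of the 6, and its difference of 0.29 ± 0.22 was 0.11 without pair 1 and 0.49 without pair 2. Mcm4, of the same complex, differed by 0.30 ± 0.17 with its SP values above its NSP values, and by 0.19 without pair 2. Pold3, an accessory subunit of the replicative polymerase delta, had 242, 531 and 503 in SP cells, against 371, 463 and 555 in NSP cells, fully mixed (-0.19 ± 0.23, and 0.027 without pair 1). The mitochondrial polymerase subunit Polg2 differed by 0.49 ± 0.17 and the base excision repair polymerase Polb by -0.27 ± 0.24, which was -0.0098 without pair 1. The 3 genes found by the word helicase alone all overlapped between groups: Ascc3, of an alkylation repair complex, at 0.27 ± 0.16, the chromatin remodeller Hells at 0.22 ± 0.15, and the RNA helicase Ddx24 at -0.28 ± 0.21 (-0.49 without pair 1 and -0.17 without pair 2).

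Array by array the pattern was the same in each sample pair. The genes had been listed by a paired comparison of these same arrays and divided by role with the values already seen. The order of the arrays therefore describes the chosen genes and tests nothing. For each gene the deviation from its mean over the 6 sorted-cell arrays was taken, and the median over the 38 mitosis and replication genes was 0.26, 0.40 and 0.11 on SP arrays 1, 2 and 3, against -0.21, -0.067 and -0.34 on NSP arrays 1, 2 and 3. All SP arrays lay above all NSP arrays, while arrays 3 of both populations were the lowest of their group. The medians over the 14 genes of other roles were 0.015, -0.11 and -0.0083 on SP arrays, against 0.012, 0.055 and 0.14 on NSP arrays. The median SP minus NSP difference of the 38 genes was 0.51, 0.48 and 0.45 in pairs 1, 2 and 3.

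The authors' own values, from the same sorted-cell arrays, ran the same way. The genes had entered the list by these values, so the match in direction is not independent support. In the authors' deposited table, which gives dChip model values on a log scale whose base is not stated and was read as log2, 42 of the 52 genes were higher in SP cells, with a median difference of 0.43. The smallest size in the authors' deposited table was 0.19 (Ccnb1), that of Cenpf was 1.02, and the paired p-values from 0.001121 to 0.049986, where the limits for entry to the list were a difference of 0.185 and a p of 0.05. Rows just outside those limits were not analysed here. The sign in the authors' deposited table equalled that of the signal intensities for 59 of 60 probe sets. The exception was Nek1, at 0.50 in the authors' deposited table. Present calls in the authors' deposited table covered all sorted-cell arrays for 58 of the 60 probe sets.

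The reference RNA gives a level that the choice of the genes did not use. For 39 of the 52 genes all 6 sorted-cell arrays lay below the reference array, for 5 all lay above it, and for 8 it fell among them. Among all probe sets tested 26.7% had every sorted-cell array below the reference and 20% had every one above, and among the authors' 1632 probe sets 37.1% lay below. The 38 mitosis and replication genes held 33 of those below the reference. With 1 reference array there is no test. At the median the reference signal of the 38 genes was 2.13 times that of SP cells and 2.83 times that of NSP cells, against 1.11 and 1.21 times for the 14 genes of other roles.

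Among the widest gaps to the reference were those of Cenpf, Nek2 and Kif18a. The dim Nek1, of the other roles, also had a wide gap, at 6.54 times SP cells and 5.65 times NSP cells. The Cenpf reference signal of 5102 was 6.45 times that of SP cells and 14.9 times that of NSP cells. That of Nek2, 2567, was 7.27 times that of SP cells and 8.88 times that of NSP cells, and that of Kif18a, 955, was 6.90 times that of SP cells and 9.27 times that of NSP cells. Cdc20 had 16210 in the reference, which was 1.97 times SP cells and 3.08 times NSP cells. Of the 38, the 6 found by the replication words lay closer at the median, at 1.56 times SP cells and 2.13 times NSP cells. Among these Mcm4 had 3145 in the reference (1.38 times SP cells and 1.71 times NSP cells) and Mcm2 had 5025 (2.11 and 2.57 times). The 16 other replication genes described below did not lie closer than the 38, with medians of 2.16 times SP cells and 2.77 times NSP cells. Ccnd2 alone among the 38 was above the reference on all 6 sorted-cell arrays, with 1595, 1331 and 1364 in SP cells and 1369, 1112 and 1227 in NSP cells, against 655 in the reference. Ccne2, Cdc27, Cdc14a and Pold3 had the reference among their sorted-cell values.

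**Figure D3:**
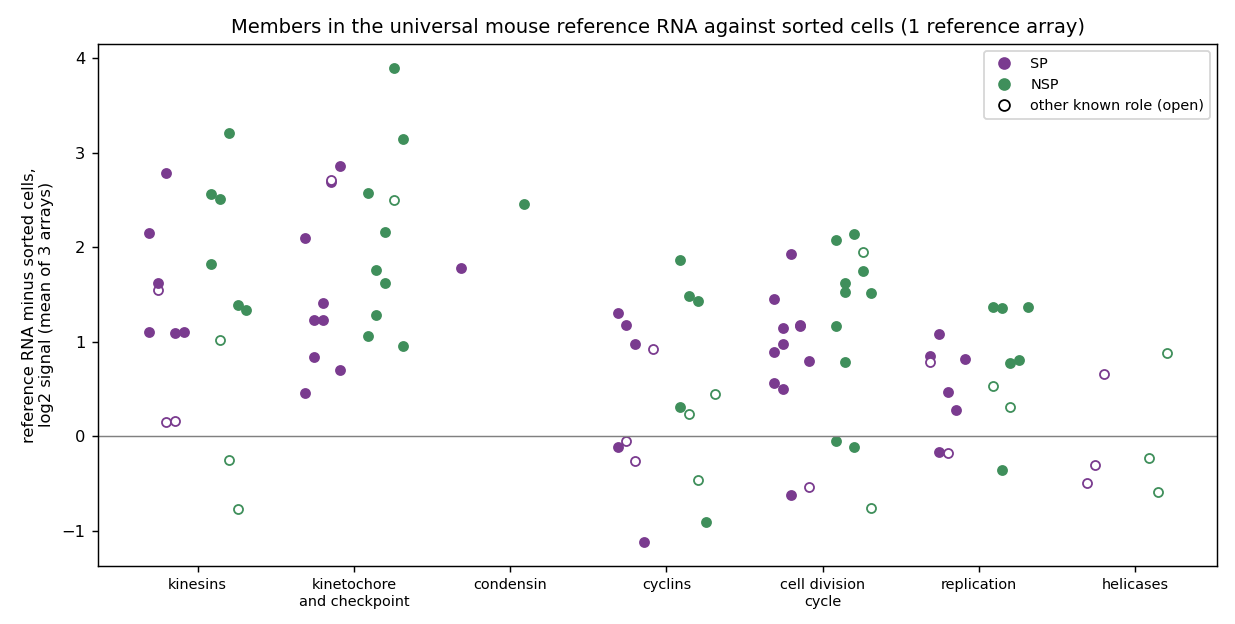
Reference RNA minus sorted cells, in log2 signal, for the genes by name group, with SP cells to the left of NSP cells in each group (means of 3 arrays against 1 reference array). Points above 0 are genes with more signal in the reference. Filled points are genes of mitosis or replication, open points genes of other known roles.

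Genes of the same pathways that the name search had not taken were read from gene lists, each as far as the authors' list named them. Of 57 other mitosis and cytokinesis genes 28 were named, 27 of them higher in SP cells with a median of 0.60, and 14 passed with the intensity trend. With that trend 2.47% of all probe sets tested passed, and 27.9% of the authors' list. Prc1, which bundles the central spindle, differed by 0.95 ± 0.18 (trend adjusted p = 0.00198), Nusap1, a spindle-binding protein, by 0.99 ± 0.20 (0.0152), and Aspm, a spindle pole protein, by 0.96 ± 0.16 (0.0103). Lmnb1, of the nuclear lamina, was the exception at -0.077 ± 0.17. Of 48 other replication genes 16 were named, 15 of them higher with a median of 0.33. There 3 passed with the trend: Rrm2, the ribonucleotide reductase subunit that supplies nucleotides, at 0.44 ± 0.16, and the repressor E2F proteins E2f7 at 0.67 ± 0.15 and E2f8 at 1.02 ± 0.27. Only 4 of 23 cell cycle brakes were named: Gadd45a, a stress-induced growth arrest gene, was lower in SP cells (-0.65 ± 0.17, trend adjusted p = 0.0265), and Tob2, Gadd45g and Rbl1 differed by 0.21 to 0.24. Since names came only from the authors' list, genes of these pathways that did not enter it have no value here. Every named gene had been listed for a difference between the same arrays, so these counts are not a test. All sorted-cell arrays lay below the reference for 27 of the 28 mitosis genes and for 14 of the 16 replication genes. That held for 26.7% of all probe sets tested and for 37.1% of the authors' list.

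**Figure D4:**
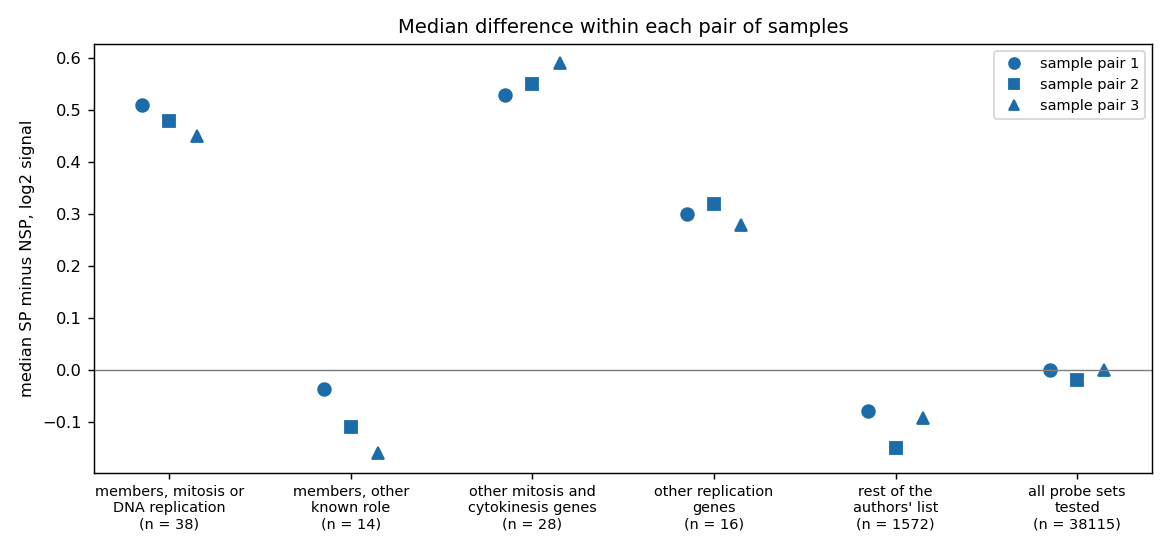
Median SP minus NSP difference in log2 signal within each pair of samples, for the 38 and the 14 genes, for the other genes of mitosis and of replication, for the rest of the authors' list and for all probe sets tested. The 38 genes sit between 0.45 and 0.51, and all probe sets tested between -0.019 and 0.

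Promoter sequences do not depend on the expression values. The genes searched had been listed by those values, and their division by role was made with the values already seen. Many genes of late cell cycle phases are known to carry a cell cycle genes homology region (CHR, letters TTTGAA) read by the MuvB complex, together with CCAAT boxes bound by NF-Y, while genes of DNA synthesis often carry E2F sites. RefSeq windows (assembly GRCm38.p6) of 250 bases before and 50 after the gene start were found for 42 of the 51 genes looked up, in 44 windows. Ccna2, Ccnd2, Ccne2, Cdca2, Kif20a, Kifc3, Mcm4, Nek1 and Polb had none in the table used. Letters were searched on both strands. Shown here are the 250 bases before the start of 4 genes of mitosis that hold both motifs, and of Pola1 as a replication gene with an E2F form. They were picked after the search, and the capitals mark TTTGAA as well as CCAAT (read as ATTGG where it lies on the opposite strand) and, in Pola1, the E2F form TTTGGCGC on its other strand.
Cdc20, chr4:118437344-118437593, minus strand: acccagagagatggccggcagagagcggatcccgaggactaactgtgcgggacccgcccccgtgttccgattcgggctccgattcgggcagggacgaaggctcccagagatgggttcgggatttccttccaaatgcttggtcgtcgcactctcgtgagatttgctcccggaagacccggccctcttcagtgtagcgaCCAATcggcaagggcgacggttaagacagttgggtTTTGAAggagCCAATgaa
Cdk1, chr10:69352913-69353162, minus strand: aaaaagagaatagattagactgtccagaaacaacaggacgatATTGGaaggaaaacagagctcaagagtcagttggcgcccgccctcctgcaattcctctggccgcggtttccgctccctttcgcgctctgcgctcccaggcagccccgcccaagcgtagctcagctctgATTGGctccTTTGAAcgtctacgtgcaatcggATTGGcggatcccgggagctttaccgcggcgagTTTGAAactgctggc
Ccnb2, chr9:70421555-70421804, minus strand: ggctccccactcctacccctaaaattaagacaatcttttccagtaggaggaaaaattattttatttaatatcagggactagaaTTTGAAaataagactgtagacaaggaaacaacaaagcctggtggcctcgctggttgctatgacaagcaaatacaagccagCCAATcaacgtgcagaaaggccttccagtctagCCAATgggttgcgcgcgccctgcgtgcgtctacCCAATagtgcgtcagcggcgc
Ncapg, chr5:45669675-45669924, plus strand: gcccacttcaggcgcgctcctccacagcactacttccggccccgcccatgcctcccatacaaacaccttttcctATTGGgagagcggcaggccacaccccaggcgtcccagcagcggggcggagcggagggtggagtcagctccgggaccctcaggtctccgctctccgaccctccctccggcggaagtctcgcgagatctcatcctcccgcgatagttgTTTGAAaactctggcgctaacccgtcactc
Pola1, chrX:93632156-93632405, minus strand: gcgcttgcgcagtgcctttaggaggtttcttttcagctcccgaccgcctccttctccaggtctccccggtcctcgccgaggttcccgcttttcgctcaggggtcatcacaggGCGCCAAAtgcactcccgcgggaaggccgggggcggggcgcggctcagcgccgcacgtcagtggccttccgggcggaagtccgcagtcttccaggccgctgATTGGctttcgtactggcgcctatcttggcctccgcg

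Positions give the first base of a match relative to the gene start. In Cdc20 the TTTGAA lay at -18, between CCAAT boxes at -53 and -8. Cdk1 held TTTGAA at -71 and -15, and CCAAT boxes at -208, -80 and -48. Ccnb2 had CCAAT boxes at -87, -54 and -21, with TTTGAA at -167 and another at 5, after the start. Ncapg had TTTGAA at -30 and a CCAAT box at -176, and Pola1 had its E2F form at -138 and a CCAAT box at -37 but no TTTGAA.

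Of the 33 windows of mitosis and replication genes, 19 held TTTGAA (57.6%), against 2 of 11 windows of the genes with other roles (18.2%) and 17.9% of all 32851 windows. CCAAT was in 23 of the 33 (69.7%), against 3 of 11 (27.3%) and 37.4% of all windows. Both stood in 15 of the 33 windows (45.5%), in 0 of the 11, and in 6.95% of all windows. Without the division by role, both stood in 15 of 44 windows (34.1%). The Mcm8 window held CCAAT and an E2F form but no TTTGAA. Any of the E2F forms TTTGGCGC, TTTCCCGC and TTTGGCGG was in 6 of the 33 (18.2%), in 1 of the 11 (9.09%) and in 2.1% of all windows. The window among the 11 was that of Hells. Matches of CCAAT and of TTTGAA on the other strand can share bases, as in Kntc1. The 15 genes with both motifs (Bub1b, Ccnb2, Cdc20, Cdc45, Cdca3, Cdca8, Cdk1, Cenpa, Cenpf, Kif11, Kif22, Kif23, Kntc1, Mcm2 and Ncapg) were all higher in SP cells, with a median of 0.58, and 11 of them had no overlap between groups. Of the 16 others of the 38 with a window 14 were higher in SP cells, with a median of 0.41, and 5 had SP above NSP. Every SP array lay above every NSP array for 6.74% of all probe sets tested and for 22.4% of the authors' list. The genes came from that list, and the difference between the 15 and the 16 was not tested. These matches are letters in a window and were not tested as binding sites.

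**Figure D5:**
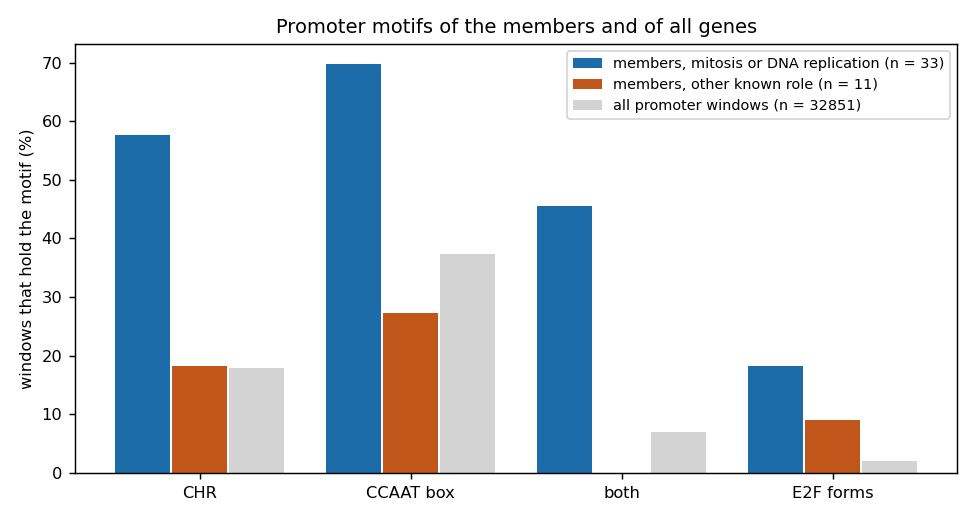
Share of promoter windows (%) that hold each motif, for the genes of mitosis or replication, the genes of other known roles and all RefSeq windows. Windows with both motifs made up 45.5% of the first set, 0% of the second and 6.95% of all windows.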

How the data were processed

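RNA of 3 SP, 3 NSP and 1 reference sample was measured on 7 arrays, whose number limits the precision. The deposited value table holds linear signal intensity for each probe set, which the submitters' processing notes credit to MAS5. Its version and scaling are not given in the sources used here. A list that the authors deposited gives dChip differences and array values on a log scale, read here as log2, present calls in percent and a p-value from a paired test. Per the file headers, the list required a difference of at least 0.185, a p-value of at most 0.05 and presence in at least 20 percent of each group's arrays. The normalization of the intensities was kept.

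A floor of 17, the 20th percentile over the sorted-cell arrays together, replaced lower signals before log2 was taken. After 64 control probe sets and those over the floor on fewer than 3 of 6 arrays were left out, 38115 probe sets were tested by limma 3.58.1 under R 4.3.3 (two-sided moderated test, Benjamini-Hochberg, threshold 0.05). Sample number was a block, since the authors' headers name a paired test and the labels give both populations the same numbers, with 2 of 3 pairs from the same day. Within pairs, deviations from the population mean had correlations of 0.0387, 0.0408 and 0.12, higher for each sample than with any other number. On simulated data the fit recovered the sizes of changes but made no calls, so the absence of calls says nothing about stability. An intensity trend did make calls there.

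Names came from the deposited list. The members and gene lists were chosen with earlier results of these data known. Genes were named by rule: the 4 largest differences of each name group, those against its direction, those with several probe sets, and a fixed set, which gave 37 genes, of which 1 is counted among the members but not reported here by itself. The rest were added as members. Alternatives covered block, trend, normalization, floor, filter, probe set choice, the authors' values and leaving out each pair.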

Additional observations from a re-analysis of the deposited data

How the results depend on the processing

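Of the 52 genes, 41 were higher in SP cells under every normalization, floor, filter and variance setting run, and 41 or 42 without each pair in turn. The count was 42 by the authors' deposited dChip differences, and 36 of 38 without the genes of other known roles. Other divisions by role, chosen after seeing the data, gave 35 of 37 and 36 of 40. The median difference of 0.35 was 0.36 with arrays centred on their medians, 0.39 for a floor at percentile 40, 0.34 for an offset of 16 and no floor, 0.38 with quantile normalization, 0.38 averaged over the probe sets of a gene, 0.44 without the genes of other roles, 0.43 by the authors' deposited differences and 0.35 to 0.39 without each pair. The count below the reference was 38 to 40.

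Calls depended on how the variance was modelled. Over all probe sets 0 passed with the block (3758 at an unadjusted p under 0.05), 6 with no replicate block (1 higher and 5 lower in SP cells), 381 with no replicate block and the intensity trend (134 higher, 247 lower) and 942 with block and trend (443 higher, 499 lower). Of the 52 genes 0, 0, 4 and 13 passed in these settings, and 0 in all others run. The cause was not tested. Without each pair in turn Nek1 ran from -0.65 to 0.35 (without pair 3) and Pold3 from -0.38 to 0.027 (without pair 1), the positive values being opposite in sign to those from all pairs. The higher floor left 51 of the 52 genes tested.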
